A study of Homo sapiens with 43 samples.

Results

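The keratin genes of the lung cancer line H2087 and the breast cancer line HCC1954 were described across latency-competent (LCC) and parental cells grown in mitogen-low (MLM) or mitogen-rich (MRM) medium. Members were all gene symbols made of KRT, digits and at most 1 letter, which leaves out keratin-associated proteins, with a mean normalised count of at least 10 over the libraries of the line. The rule kept 17 of 55 such symbols among 18085 genes in H2087 and 33 of 56 among 25369 genes in HCC1954. In all, 34 keratins were members in at least 1 line, 16 of them in both lines, KRT79 in H2087 alone and 17 in HCC1954 alone. Just above the limit lay KRT79 at 14.0 and KRT3 at 22.6 in H2087, and just below it KRT6B at 4.29 and KRT83 at 3.59. In HCC1954 KRT12 at 10.3 and KRT74 at 10.2 were kept, and KRT84 at 2.57 and KRT24 at 2.19 were not. Of the symbols left out, 13 in H2087 and 4 in HCC1954 had no read in any library.

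Keratins are the intermediate filament proteins of epithelial cells. Each filament is built from pairs of an acidic type I chain, encoded in a cluster on chromosome 17, and a basic type II chain, encoded in a cluster on chromosome 12. KRT18 is the exception, a type I gene next to KRT8 in the type II cluster. Which pair a cell makes follows its kind of epithelium, and keratins are used in pathology to name the origin of a carcinoma. Here 17 members lay on chromosome 12 and 17 on chromosome 17. They were grouped as simple keratins of single-layered epithelium (KRT7, KRT8, KRT18, KRT19, KRT20), basal keratins of the lowest cells of layered epithelium (KRT5, KRT14, KRT15, KRT17), squamous keratins of differentiating, cornified, mucosal or wounded layers, hair shaft keratins, and hair follicle sheath keratins (KRT74, KRT75, KRT79). KRT23 and KRT80 were kept apart as other keratins and KRT42P as a pseudogene. These groups held 4 simple, 1 basal, 7 squamous, 2 hair shaft, 2 sheath and 1 other member in H2087. In HCC1954 they held 5 simple, 4 basal, 10 squamous, 9 hair shaft, 2 sheath, 2 other and 1 pseudogene member.

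Total RNA was sequenced from cells kept below confluence for 48 h. H2087 was represented in each medium by 6 LCC libraries, 1 per derivative (LCC1 to LCC6), and by 2 parental libraries. HCC1954, whose ERBB2 gene is amplified, was represented in each medium by 4 LCC libraries, 2 of derivative LCC1 and 2 of derivative LCC2, and by 3 parental libraries. The derivatives of the lines carry the same names but are different cells, and libraries of 1 derivative share their source. The labels do not state whether replicate libraries came from separate cultures. The p-values then measure only the spread between these libraries, which may be technical.

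Depth was 44.6 to 54.0 M reads in the H2087 LCC libraries of MLM and 50.5 to 55.7 M in the parental ones, against 16.2 to 20.8 M in LCC libraries and 12.1 to 18.1 M in parental libraries of MRM. In HCC1954 the LCC libraries held 24.9 to 28.1 M reads and the parental ones 24.9 to 26.7 M in MLM, against 28.8 to 39.9 M in LCC libraries and 32.1 to 44.7 M in parental libraries of MRM. Medium and depth therefore cannot be told apart, most of all in H2087. All 8 epithelial marker genes were detected in both lines. The lung marker NKX2-1 was at 81.0 to 225 CPM (reads scaled to equal library totals) in H2087 and at 8.09 to 24.4 CPM in HCC1954. The alveolar marker SFTPC was at 0.07 CPM or less in H2087. The group means of the other lung markers there were 5.40 to 124 CPM for SFTPB and 2.27 to 11.6 CPM for NAPSA. Those of SLC34A2 and SFTA2 were at most 1.19 and 0.03 CPM. ERBB2 was at 4015 to 9489 CPM in HCC1954. A pair of HCC1954 libraries stood apart from the others of their group, the parental library 3 in MLM and the second LCC1 library in MRM. Over all genes, the chi-square of their read counts per degree of freedom was 62.95 and 63.09 for parental library 3 against libraries 1 and 2, and 7.57 between those 2. It was 115.5 for the LCC1 pair in MRM and 2.1 for the LCC2 pair. The value of a pair does not tell which library differs. Against the LCC2 libraries of MRM it was 113.5 and 127.8 for the first LCC1 library and 208 and 229.3 for the second. Fold changes without these libraries are given beside the main results of HCC1954.

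The lines drew on different keratins. In HCC1954 basal keratins made up 33.7% to 43.3% of all normalised keratin counts of an LCC library and 32.4% to 38.6% of a parental one, and hair shaft keratins 13.3% to 18.3% of an LCC library and 7.16% to 12.2% of a parental one. Simple keratins made up 35.2% to 44.4% of an LCC library and 51.3% to 53.6% of a parental one in HCC1954, against 93.1% to 97.0% of every library in H2087. These shares count reads and are not per length. In bulk RNA, fewer cells that make a keratin and less of its RNA per cell cannot be told apart. KRT5, KRT14 and KRT17, partners of the basal filament network and of the hair follicle, averaged 596, 20.5 and 1337 CPM in HCC1954 and 0.04, 0.11 and 0.06 CPM in H2087. The basal keratin KRT15 averaged 4215 CPM in HCC1954 and 24.6 CPM in H2087, and the hair cortex keratin KRT81 averaged 2127 CPM in HCC1954 and 7.90 CPM in H2087. KRT18 and KRT19 ran the other way, at 1454 and 52.9 CPM in HCC1954 and 2730 and 461 CPM in H2087, while KRT8, the partner of KRT18, was at 3509 CPM in HCC1954 and 2167 CPM in H2087. These means take LCC and parental libraries together. In parental libraries alone the KRT18 medians were alike, at 2246 CPM in HCC1954 and 2253 CPM in H2087. In LCC libraries they were 812 CPM in HCC1954 and 2578 CPM in H2087. The tables of the lines were normalised separately, so these levels are descriptions with no test.

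**Figure D1:**
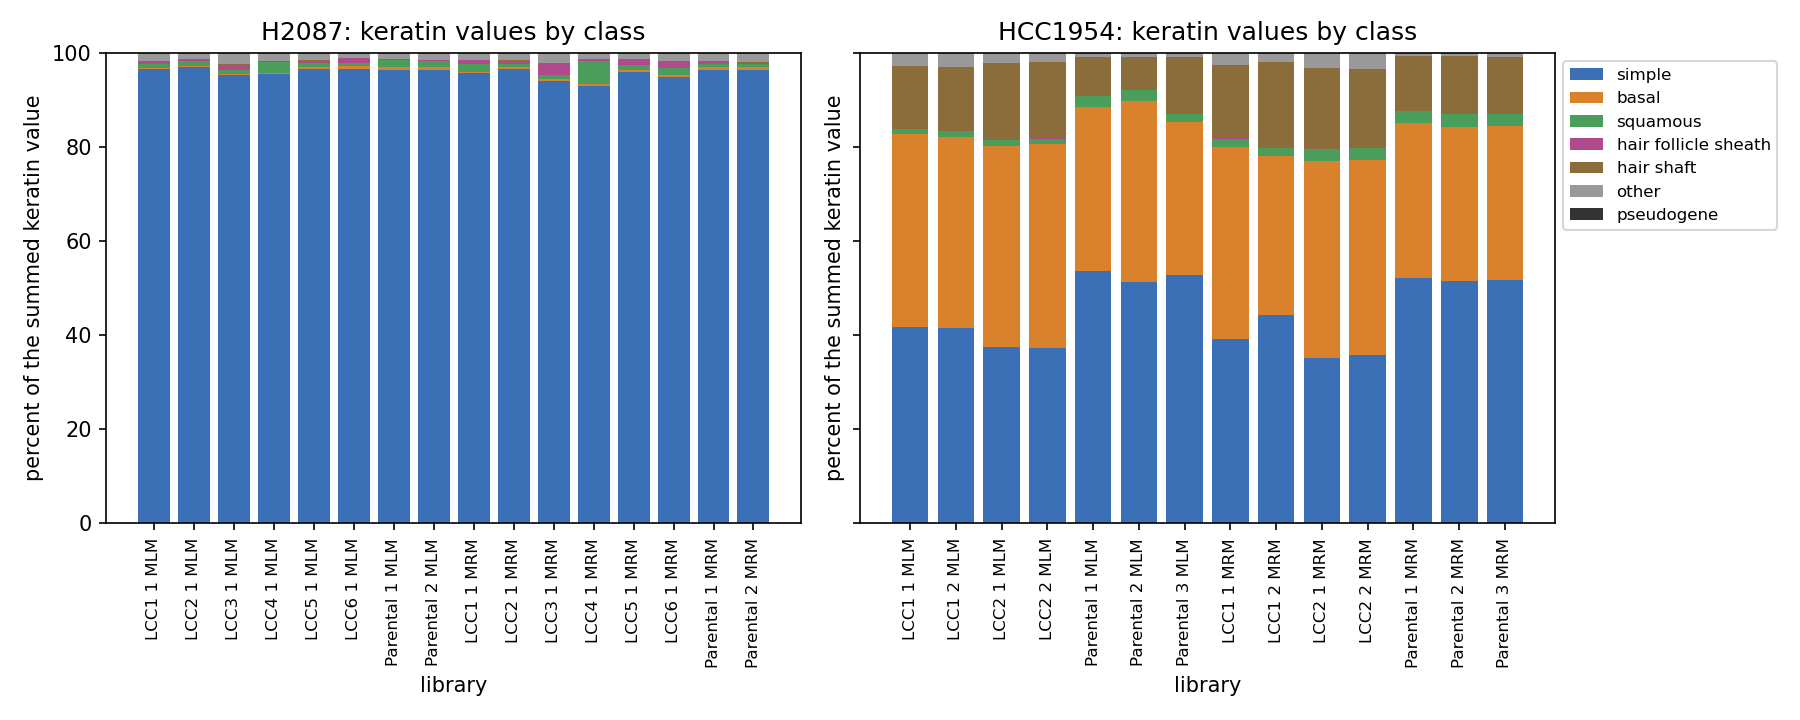
Share of the summed normalised keratin counts taken by each keratin group in each library (y axis, percent, not per length; x axis, libraries by line, with LCC left of parental and MLM left of MRM). Simple keratins take 35.2% to 44.4% of the HCC1954 LCC bars and 51.3% to 53.6% of the parental ones, and 93.1% to 97.0% of each H2087 bar.

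KRT81 overlaps KRT86, and KRT8 overlaps KRT18, in the RefSeq gene spans of GRCh38.p14. The sources used here do not say whether reads were counted by strand, so reads of these pairs may be shared. The split of reads among the near-identical copies KRT6A, KRT6B and KRT6C, among KRT14, KRT16 and KRT17, and among KRT81, KRT83, KRT85 and KRT86 is likewise uncertain.

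In H2087, LCC cells were compared with parental cells in each medium to ask how the keratins of the latency-competent cells differ. In MLM 1 of 17 keratins passed the test and 16 did not, against 13.7% of all genes tested, and the 6 LCC libraries lay wholly on 1 side of the 2 parental ones for 6 of 17 keratins, against 36.4% of all genes. In MRM 4 of 17 keratins rose and 0 fell, against 14.6% of all genes called in either direction, and the groups did not overlap for 10 of 17, against 38.0%. The median log2 fold change over the keratins was 0.49 in MLM and 0.68 in MRM, beside 0.0050 and -0.0023 over all genes. The members called were 2 simple keratins, the sheath keratin KRT75 and the wound keratin KRT6A.

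KRT75, the type II keratin of the companion layer of the hair follicle, was the keratin called in both media. Its promoter window, from 250 bases before the RefSeq start to 50 after it on the minus strand at chr12:52434322-52434621 of GRCh38.p14, is shown because KRT75 also moves with medium in both lines. The capitals mark GGGCGG on the other strand, the letters of a GC box, 50 bases before the start.
KRT75: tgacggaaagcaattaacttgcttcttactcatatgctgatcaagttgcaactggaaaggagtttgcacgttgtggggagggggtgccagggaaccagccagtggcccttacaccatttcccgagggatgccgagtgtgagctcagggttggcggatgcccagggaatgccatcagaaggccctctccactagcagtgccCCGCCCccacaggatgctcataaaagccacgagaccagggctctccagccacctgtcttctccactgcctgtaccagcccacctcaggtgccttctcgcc
In MLM, KRT75 had normalised counts of 271 to 1638 with a median of 706 in LCC libraries, against 78.1 and 81.1 in parental ones (adjusted p = 0.0138). Every LCC library lay above both parental libraries, with LCC3 highest and LCC2 lowest. In MRM every LCC library again lay above both parental ones, with LCC3 highest and LCC4 lowest, at 471 to 4143 with a median of 1869 in LCC libraries and 251 and 319 in parental libraries (log2 fold change 2.54 ± 0.65 SE, adjusted p = 0.0338). In MRM the call was lost without the LCC1, LCC5 or LCC6 library or either parental library, and in MLM without either parental library.

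Among the simple keratins, KRT7 and KRT19, chains of ductal and glandular epithelium, rose in the LCC cells in MRM. KRT7 had normalised counts of 19606 to 54259.9 with a median of 23565 in LCC libraries, against 10147 and 10193 in parental libraries (log2 fold change 1.35 ± 0.34 SE, adjusted p = 0.0314). KRT19 had 12014 to 26901 with a median of 14914 in LCC libraries and 7119.7 and 8101 in parental libraries (log2 fold change 1.08 ± 0.26 SE, adjusted p = 0.0262). For both genes the lowest LCC library lay above the higher parental one. In MLM the groups did not overlap either, with KRT7 at 15951 to 46211 in LCC libraries and 12267 and 13384 in parental ones, but neither gene passed the test there. KRT8 had 55493 to 163026 in LCC libraries and 40208 and 45377 in parental libraries of MRM, and its partner KRT18 had 65845 to 162987 in LCC and 48999.8 and 55804 in parental libraries. Neither passed the test, with adjusted p-values of 0.208 and 0.174. Leaving out the LCC4 library, the highest of the 6 for KRT7, KRT8, KRT18 and KRT19, gave 8 higher keratins in MRM, where 18.4% of all genes were called, against 4 with all libraries. None was called without either parental library. The count was 2 without LCC1 and 1 without LCC5.

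KRT6A, a type II keratin induced in wounded and dividing epidermis, also rose in MRM. It had normalised counts of 7.74 to 135 with a median of 41.2 in LCC libraries, against 1.58 and 0 in parental libraries. These values rest on 188 reads in the 6 LCC libraries and 1 read in the 2 parental ones, a ratio of 55.6 with an exact 95% counting interval from 9.86 to 2208 (limma adjusted p = 0.0123). In MLM it had 11.5 to 529.6 with a median of 102 in LCC libraries and 581 and 592 in parental libraries, so all 6 LCC libraries lay below both parental ones. The test did not call that difference (log2 fold change -2.85 ± 1.28 SE, adjusted p = 0.179).
KRT4 of mucosal layers had 295 to 19686 with a median of 1059.9 in LCC libraries and 88.6 and 70.9 in parental libraries of MRM. All 6 LCC libraries lay above both parental ones, and the gene was not called (log2 fold change 3.95 ± 1.38 SE, adjusted p = 0.0877). The squamous KRT78 did not overlap in MRM either, with 20.1 to 723 in LCC libraries and 7.91 and 9.45 in parental ones (adjusted p = 0.136). DESeq2 called KRT78 in MRM. The other keratins that limma called in neither medium were KRT3, KRT10, KRT13, KRT15, KRT16, KRT79, KRT80, KRT81 and KRT86.

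The 6 LCC derivatives of H2087 were then compared among themselves. Each derivative was set against the mean of the other 5, with its MLM and its MRM library as its 2 libraries and medium as a term, and the 6 contrasts share libraries. A derivative has only 1 library per medium. In LCC4, 10 of 17 keratins rose and 1 fell, against 16.3% of all genes tested. All 4 simple keratins, 4 of 7 squamous keratins, KRT15 and KRT80 rose. The median log2 fold change of the keratins was 1.14, beside 0.0023 over all genes, and for 11 of 17 keratins both LCC4 libraries lay on 1 side of all 10 others, against 7.57% of all genes. edgeR called the same count of 10 higher and 1 lower in LCC4, and DESeq2 11 and 1.

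KRT4, the type II keratin of mucosal layers such as the oesophagus, ranged from 46.1 to 5948 normalised counts over the LCC libraries of MLM and from 295 to 19686 over those of MRM. Its promoter window, chr12:52814067-52814366 of GRCh38.p14 on the minus strand, is shown beside that of KRT3 because both squamous genes were high in LCC4. KRT3 encodes the type II keratin of the corneal surface. In its window, chr12:52796068-52796367 on the minus strand, the capitals mark TATAAA, the letters of a TATA box, 30 bases before the start. The KRT4 window held none of the motifs searched.
KRT4: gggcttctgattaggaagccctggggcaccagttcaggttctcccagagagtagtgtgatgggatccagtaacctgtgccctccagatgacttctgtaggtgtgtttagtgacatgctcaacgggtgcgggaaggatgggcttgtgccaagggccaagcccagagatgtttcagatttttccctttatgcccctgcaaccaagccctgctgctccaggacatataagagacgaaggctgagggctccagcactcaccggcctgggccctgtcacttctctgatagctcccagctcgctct
KRT3: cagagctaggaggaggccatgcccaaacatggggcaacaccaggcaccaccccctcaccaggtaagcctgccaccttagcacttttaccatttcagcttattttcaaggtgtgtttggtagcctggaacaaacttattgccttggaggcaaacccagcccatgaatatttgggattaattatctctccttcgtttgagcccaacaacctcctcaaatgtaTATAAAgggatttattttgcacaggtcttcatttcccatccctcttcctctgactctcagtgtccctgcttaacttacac
Besides TATAAA and GGGCGG, both strands were searched for the letters CCAAT of a CCAAT box and for the letters TGAGTCA of an AP-1 site, which share no overlap. A window was found for 17 of the 34 keratins. The TATA box letters were in 5 of those 17 and in 11.5% of all 35116 windows, and the CCAAT box letters in 6 and 34.6%. The GC box letters were in 4 of the 17 and 45.0% of all windows, and the AP-1 letters in 0 and 4.95%.

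In MLM the LCC4 library had 5948 normalised counts of KRT4, against 46.1 to 487 in the other 5 derivatives. In MRM it had 19686, against 295 to 1907 in the others (log2 fold change 5.16 ± 0.54 SE, adjusted p = 0.000758). LCC4 stood far above every other derivative in both media. KRT78, a type II keratin of layered epithelium, was at 433 in LCC4 and 17.2 to 42.9 in the others in MLM, and at 723 in LCC4 and 20.1 to 142 in the others in MRM (log2 fold change 3.96 ± 0.51 SE, adjusted p = 0.00173). KRT13, the type I partner of KRT4, was lower in reads, with 189.8 in LCC4 and 2.56 to 25.1 in the others in MLM (log2 fold change 3.90 ± 0.46 SE, adjusted p = 0.00133). KRT3 had 72.0 in LCC4 and 2.56 to 16.0 in the others in MLM, and its call was lost without either LCC4 library (log2 fold change 2.99 ± 0.58 SE, adjusted p = 0.00932). The remaining squamous members KRT6A, KRT10 and KRT16 were not called in LCC4 by limma or edgeR, while DESeq2 called KRT6A higher.

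The 4 simple keratins of LCC4 were each above those of all other derivatives in the same medium. KRT8 had 118075 normalised counts in LCC4 and 47891 to 57606 in the others in MLM, and 163026 in LCC4 and 55493 to 63594 in the others in MRM (log2 fold change 1.29 ± 0.10 SE, adjusted p = 0.000331). KRT18 had 143323 in LCC4 and 65204 to 76541 in the others in MLM (log2 fold change 1.08 ± 0.11 SE, adjusted p = 0.000781). In neither medium did another derivative come near LCC4 for either chain. The log2 fold changes of KRT7 and KRT19 were 1.25 ± 0.12 and 0.88 ± 0.11, and those of the basal KRT15 and of KRT80, a type II keratin found at desmosomes, were 1.13 ± 0.16 and 1.14 ± 0.19. The KRT15 and KRT80 calls were lost without the LCC4 library of MRM. Keratin reads as a whole made up 1.19 of each 100 library reads in LCC4 in MLM and 1.38 in MRM, against 0.507 to 0.623 in the other derivatives over both media and 0.386 to 0.525 in parental cells.

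KRT75 was the member that fell in LCC4. It had 461 normalised counts in LCC4 in MLM, against 271 to 1638 in the others, and 471 in MRM, against 1361 to 4143 in the others (log2 fold change -1.47 ± 0.32 SE, adjusted p = 0.0141). LCC4 was the lowest derivative in MRM, but in MLM LCC2 was lower, and the call was lost without the LCC4 library of MRM.

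LCC3 had the most keratins called lower, with 6 of 17 lower and 1 higher than the other 5 derivatives, against 8.15% of all genes. LCC4 is among those 5, so its high values enter this contrast. LCC3 was not the lowest derivative for each of them, with KRT4 in MLM at 83.3 in LCC3 and 46.1 in LCC6. KRT75 had 1638 normalised counts in LCC3 in MLM and 4143 in MRM, the highest of the derivatives in both media (log2 fold change 1.51 ± 0.32 SE, adjusted p = 0.0212). Those that fell were KRT6A, KRT13, KRT4, KRT15, KRT19 and KRT8, with log2 fold changes of -2.98 ± 0.67, -2.57 ± 0.46, -2.07 ± 0.54, -1.10 ± 0.16, -0.57 ± 0.11 and -0.40 ± 0.10. Each LCC3 call was lost without either LCC3 library, which leaves 1 library of that derivative. The falls of KRT4, KRT8 and KRT6A were lost without 10, 9 and 4 of the 12 libraries in turn. Those of KRT4 and KRT6A were also lost under edgeR, and those of KRT4 and KRT8 with no filter on low values. In LCC2 KRT4 and KRT7 were lower than in the other 5 derivatives, LCC4 again among them, with log2 fold changes of -2.39 ± 0.54 and -0.42 ± 0.12, against 20.2% of all genes called. In MRM LCC2 was the lowest derivative for both genes. In MLM LCC6 was lower, with KRT4 at 46.1 against 63.5 in LCC2 and KRT7 at 15951 against 18542. For KRT7, LCC2 lay above both parental libraries in each medium. The KRT4 call was lost there without either LCC2 library. The KRT7 call was lost with library totals as the scale and without 7 of the 12 libraries in turn.
In LCC1, LCC5 and LCC6 limma called 0 of 17 keratins, against 1.80%, 1.85% and 6.54% of all genes. At an unadjusted p under 0.05 there were 4, 3 and 9 keratins. edgeR called 0, 0 and 1, and DESeq2 1, 0 and 6.

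**Figure D2:**
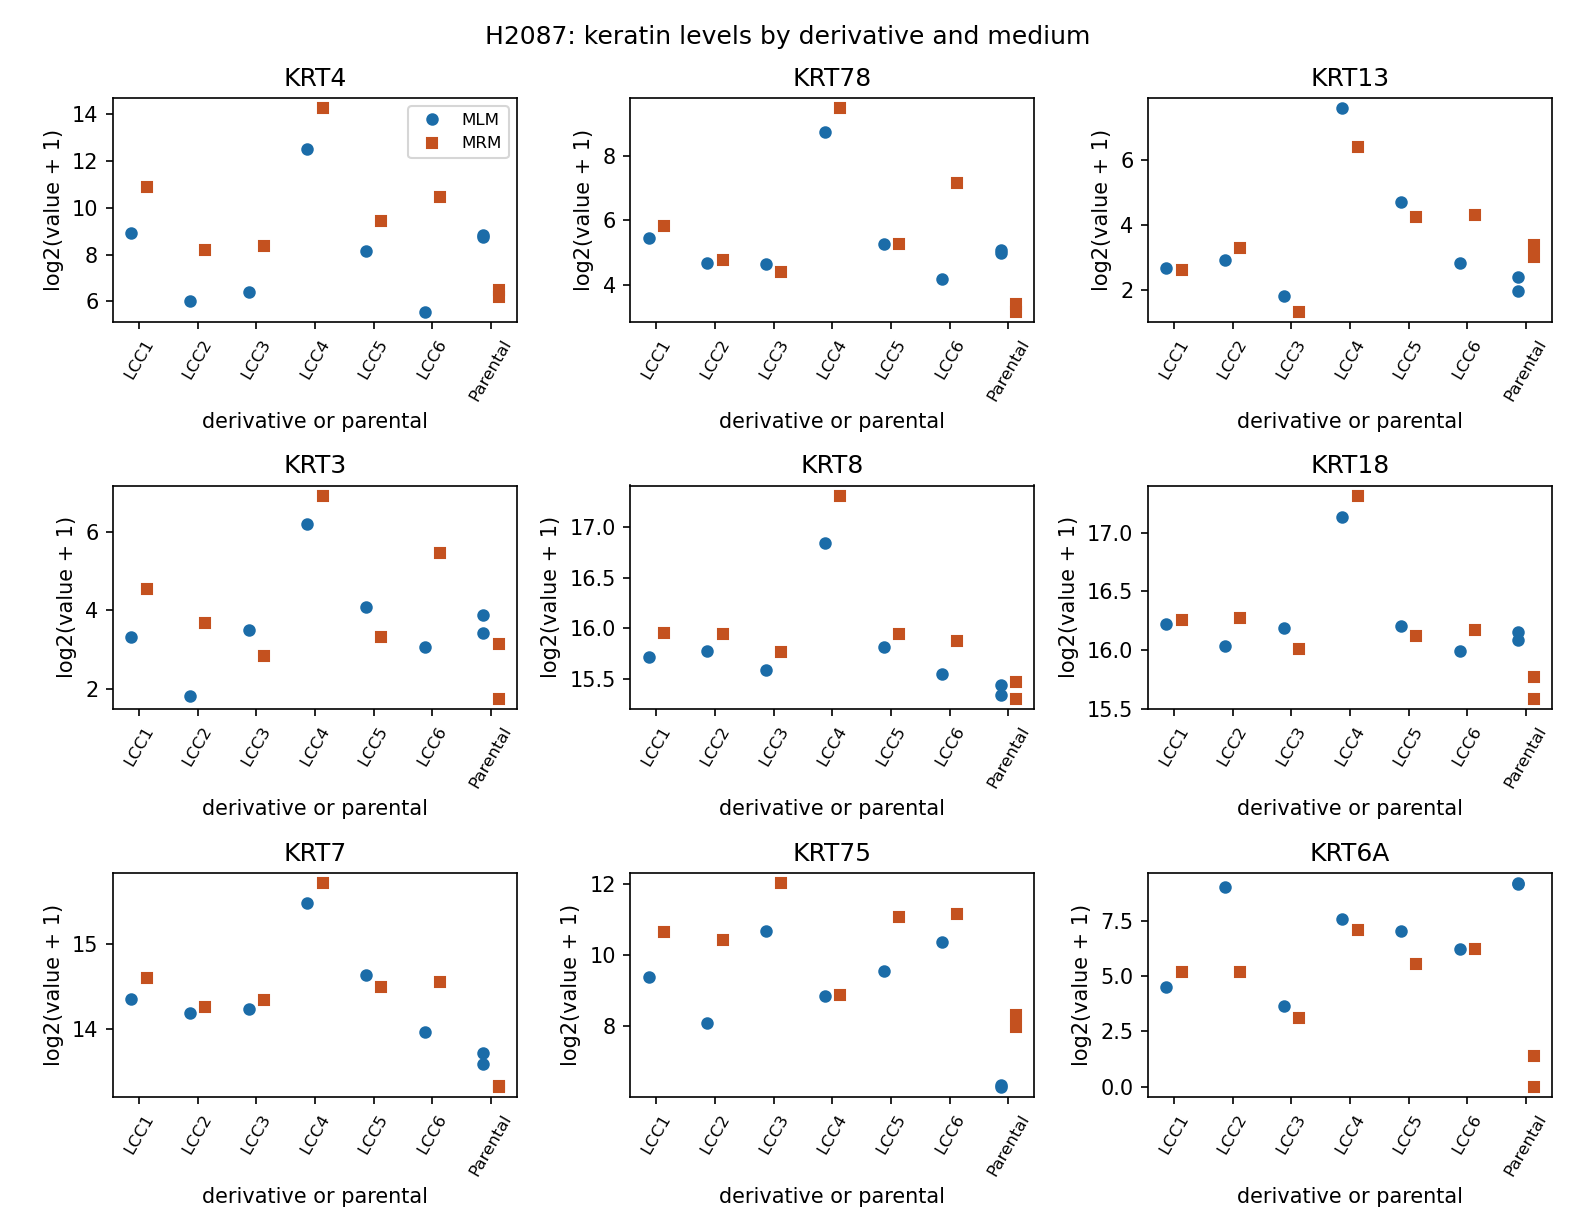
Normalised counts (y axis, log scale) of selected keratins in the 6 H2087 LCC derivatives and the parental libraries (x axis), with MLM and MRM libraries as separate points. LCC4 is highest for KRT4, KRT78 and KRT8 in both media, while KRT75 is highest in LCC3 at 1638 in MLM and 4143 in MRM.

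Genes whose proteins tie keratin filaments to desmosomes and hemidesmosomes, or bind them otherwise, were counted as well. Of 19 tested, 11 rose and 0 fell in LCC4, against 16.3% of all genes called, with a median log2 fold change of 0.62, beside 0.0023 over all genes. They included the desmosomal plaque genes PPL (1.69 ± 0.24), PKP3 (1.44 ± 0.12), PKP2 (1.34 ± 0.20) and JUP (1.20 ± 0.15), and the hemidesmosomal ITGB4 (1.01 ± 0.17, log2 fold change ± SE). In LCC3, 9 of 19 fell and 0 rose, against 8.15% of all genes, with DSP, which anchors keratins to desmosomes, at -1.19 ± 0.12 and PKP1 at -1.70 ± 0.26. Of the squamous differentiation genes, 5 of 13 rose and 1 fell in LCC4, against 16.3% of all genes, among them the epithelial transcription factor GRHL2 (4.55 ± 0.79) and the cornified envelope gene IVL (1.81 ± 0.46). In LCC3, where 2 fell and 1 rose, against 8.15% of all genes, GRHL2 was at -6.34 ± 0.79 and IVL at -3.75 ± 0.46. Of 9 other intermediate filament genes, 0 rose and 2 fell in LCC4, against 16.3% of all genes, GFAP (-1.66 ± 0.27) and VIM (-0.94 ± 0.18), the filament of mesenchymal cells. The 8 epithelial markers summed to 1227 CPM in LCC4 in MLM and 2899 CPM in MRM. In the other derivatives the sums were 284 to 515 CPM in MLM and 692 to 1168 CPM in MRM. Parental cells had 410 to 411 CPM in MLM and 708 to 725 CPM in MRM. The higher parental sum in MRM did not hold for each marker. There the group means of EPCAM, CLDN4, CLDN7, ESRP2 and ELF3 were higher than in MLM. Those of CDH1, ESRP1 and RAB25 were lower. The marker lists of fibroblasts, blood and endothelium summed to at most 37.5, 3.98 and 48.3 CPM in any library of the series. The part of the higher epithelial markers in the keratin levels of LCC4 was not tested.

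**Figure D3:**
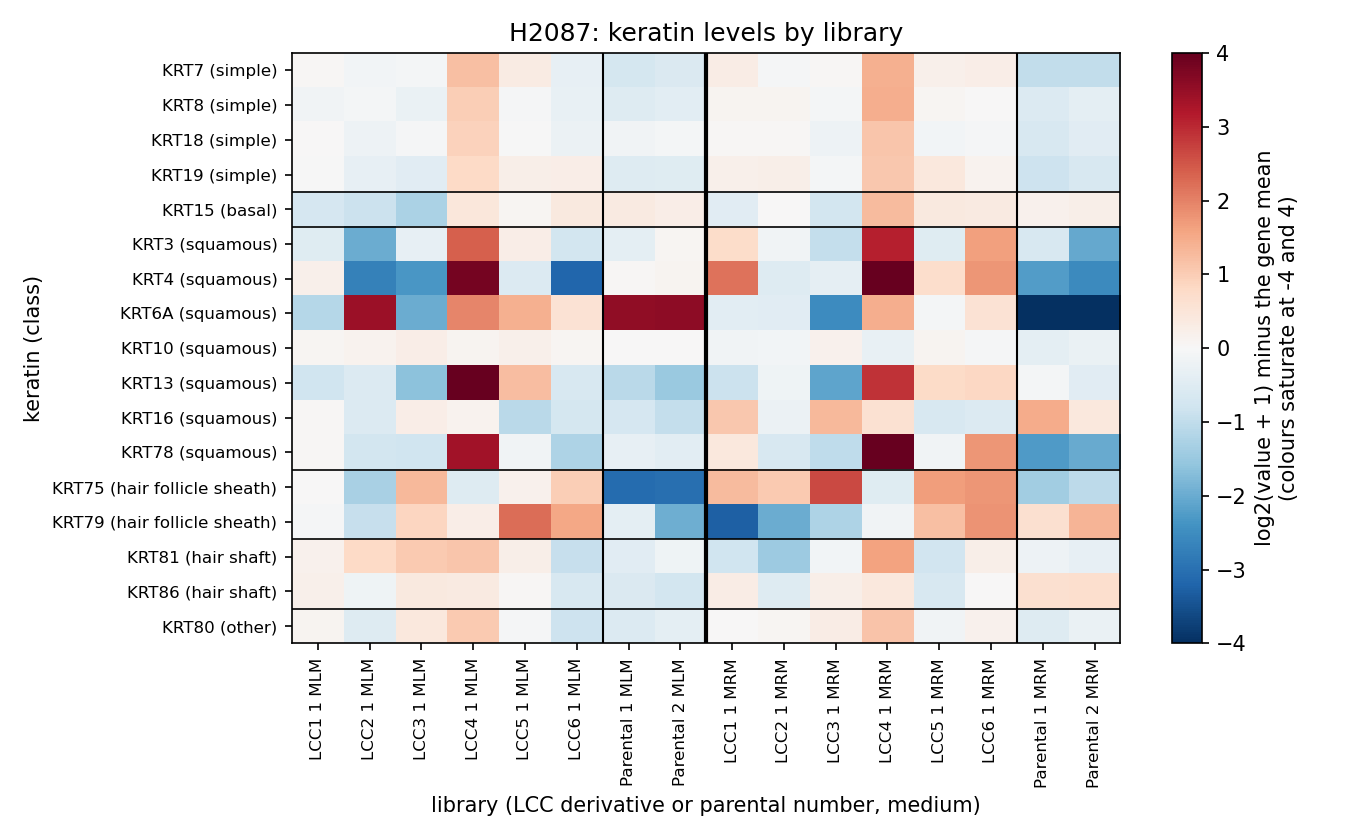
Normalised counts of the 17 H2087 keratins in every library as colour, log2 of the count plus 1 set relative to the mean of the gene (rows, keratins by group; columns, LCC before parental libraries). The LCC4 columns hold the highest values of the 4 simple keratins and of KRT4 and KRT78. KRT6A is lowest in the parental MRM libraries, at normalised counts of 1.58 and 0. Colours saturate at both ends of the scale.

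The media were compared within each kind of cell to ask how keratins change when mitogens are scarce. In H2087 parental cells 7 of 15 keratins tested were higher in MLM and 4 lower, against 72.6% of all genes, so the share of keratins called was near that of all genes. KRT6A had 581 and 592 normalised counts in MLM and 1.58 and 0 in MRM, from 2274 reads against 1 read, a ratio of 619 with an exact 95% counting interval from 111 to 24457. KRT4 had 436 and 457 in MLM and 88.6 and 70.9 in MRM (log2 fold change 2.48 ± 0.13 SE, adjusted p = 2.96e-06). KRT78 had 32.9 and 30.7 in MLM and 7.91 and 9.45 in MRM (log2 fold change 1.76 ± 0.30 SE, adjusted p = 0.00121). These squamous genes were higher in both MLM libraries than in both MRM libraries.
KRT10, a keratin of differentiated epidermis, and the simple keratins KRT18, KRT7 and KRT19 were higher by less, with log2 fold changes of 0.35 ± 0.06, 0.44 ± 0.07, 0.33 ± 0.05 and 0.24 ± 0.06. Lower in MLM was KRT75, at 78.1 and 81.1 in MLM and 251 and 319 in MRM (log2 fold change -1.82 ± 0.14 SE, adjusted p = 2.16e-05). KRT79 of the upper hair follicle, the wound keratin KRT16 and the hair cortex keratin KRT86 were also lower in MLM, with log2 fold changes of -2.17 ± 0.60, -1.75 ± 0.38 and -1.31 ± 0.14. For KRT79 these libraries held only 12 and 3 reads in MLM and 9 and 10 in MRM. With only 2 libraries in each medium the spread is poorly known, and a fit of all 4 groups of the line called 2 higher and 2 lower, with KRT4, KRT75 and KRT78 among the calls lost.

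In H2087 LCC cells limma called 0 of 17 keratins between the media, against 32.7% of all genes, with 2 at an unadjusted p under 0.05, and edgeR and DESeq2 called 1 each. The media share the derivatives, and with the derivative as a block 2 keratins were higher in MLM and 6 lower, against 48.9% of all genes. With that block KRT4 was lower in MLM (log2 fold change -2.34 ± 0.40 SE, adjusted p = 0.00133), at 46.1 to 5948 with a median of 186 normalised counts in MLM and 295 to 19686 with a median of 1059.9 in MRM. Each of the 6 derivatives had less KRT4 in MLM than in MRM, while both parental libraries of MLM lay above both of MRM. KRT75 was lower with the block too (log2 fold change -1.21 ± 0.24 SE, adjusted p = 0.00272), but LCC4 had 461 in MLM and 471 in MRM. The log2 fold changes with the block were -0.58 ± 0.20 for KRT16, -0.46 ± 0.12 for KRT15, -0.26 ± 0.08 for KRT19 and -0.25 ± 0.07 for KRT8, and 1.26 ± 0.44 for KRT79 and 0.21 ± 0.06 for KRT10. Reads of KRT79 were few, 8 to 79 in an LCC library of MLM and 0 to 19 in one of MRM.

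The LCC effect itself differed between the media for KRT6A in H2087, against 10.7% of all genes. The difference, the LCC effect in MLM minus that in MRM, was -7.57 ± 1.66 on the log2 scale (adjusted p = 0.0102). Its size depends on the pseudocount, since the parental MRM libraries held 1 read, and the call was lost under edgeR and without either parental MLM library or parental library 2 of MRM. Without the LCC6 library of MLM, or the LCC4 library of MRM, 2 keratins were called. With the derivative and the replicate number as blocks, 2 of 17 keratins had a positive and 6 a negative difference, against 27.3% of all genes. The negative ones were KRT6A, KRT4 (-4.82 ± 0.76), KRT78 (-2.42 ± 0.72), KRT7 (-0.52 ± 0.16), KRT18 (-0.51 ± 0.15) and KRT19 (-0.50 ± 0.15). KRT79 (3.43 ± 0.93) and KRT86 (1.37 ± 0.32) were the positive ones. The KRT79 difference rests on few reads, 34 in all parental libraries and 227 in all LCC libraries.

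In HCC1954, LCC cells had less of the simple pair KRT8 and KRT18, of KRT15, and of KRT4, KRT13 and KRT6A, and more KRT5, KRT17 and KRT19 than parental cells, in both media. Keratins as a whole made up 1.21 to 1.64 of each 100 library reads in LCC libraries and 1.86 to 2.13 in parental ones. In MLM 7 of 30 keratins tested rose and 8 fell, against 36.5% of all genes, and with library totals as the scale 8 rose and 6 fell. In MRM 8 of 32 rose and 9 fell, against 38.4% of all genes. The 4 LCC libraries did not overlap the 3 parental ones for 15 of 30 keratins in MLM, against 46.9% of all genes, and for 17 of 32 in MRM, against 51.6%. The median log2 fold change over the keratins was 0.11 in MLM and -0.03 in MRM, beside -0.0022 and -0.0042 over all genes, and scaling by library totals put the median of all genes at 0.112 and 0.123. Between 11 and 16 keratins were called in MLM when 1 library was left out. In MRM 21 were called without the second LCC1 library, against 48.4% of all genes, and 9, 9 and 8 without parental libraries 1, 2 and 3.

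KRT8, the type II chain of simple epithelium, had normalised counts of 82988, 78525, 69423 and 69999 in LCC libraries of MLM, against 186280.0, 182967 and 167992 in parental libraries (log2 fold change -1.25 ± 0.11 SE, adjusted p = 0.000328). In MRM it had 62876, 96544, 47209 and 44783 in LCC libraries and 148998, 138985 and 137352 in parental libraries (log2 fold change -1.24 ± 0.26 SE, adjusted p = 0.00875). KRT18 had 30527, 28790.2, 19474 and 19250.1 in LCC libraries and 63799, 53572 and 66139 in parental libraries of MLM (log2 fold change -1.35 ± 0.20 SE, adjusted p = 0.00215). Every LCC library lay below every parental library for both chains of the pair, in MLM and in MRM, where the log2 fold change of KRT18 was -1.51 ± 0.32. KRT7 fell as well, with log2 fold changes of -0.66 ± 0.17 in MLM and -0.73 ± 0.13 in MRM. In MLM its LCC2 libraries lay higher than its LCC1 libraries, at 83335 and 80380.3 against 59464 and 56329.
The log2 fold changes in MLM without parental library 3 were -1.30 ± 0.11 for KRT8, -1.29 ± 0.24 for KRT18 and -0.75 ± 0.19 for KRT7. Those in MRM without the second LCC1 library were -1.47 ± 0.14, -1.78 ± 0.21 and -0.82 ± 0.08, and all 6 stayed called. The MLM call of KRT7 was lost with library totals as the scale and without 3 of the 7 libraries in turn.
KRT19 rose while KRT7, KRT8 and KRT18 fell. In MLM it had 2218, 2027, 2169.7 and 2227 in LCC libraries and 1144, 1116 and 717 in parental libraries (log2 fold change 1.15 ± 0.17 SE, adjusted p = 0.00206). In MRM it had 2012, 1076, 2210.5 and 2052 in LCC libraries and 1019, 1047 and 927 in parental libraries (log2 fold change 0.83 ± 0.25 SE, adjusted p = 0.0325). The second LCC1 library of MRM was the lowest of the 4, at 1076, above each parental value, and the MRM call was lost without 6 of the 7 libraries in turn. Leaving out that LCC1 library gave 1.07 ± 0.08 in MRM, still called, and leaving out parental library 3 gave 0.93 ± 0.08 in MLM. KRT20, the simple keratin of gut epithelium and Merkel cells, had 2.46 to 41.9 normalised counts in any LCC library and was not called in MRM.

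The basal keratins went both ways. KRT5, the type II basal chain, had 33115, 30782, 26593 and 25804 in LCC libraries and 9932, 11768 and 15292 in parental libraries of MLM (log2 fold change 1.25 ± 0.16 SE, adjusted p = 0.00135). KRT17, a type I keratin of hair follicles and wounded skin, had 65171, 64047, 66678 and 63655 in LCC libraries and 15693, 16203 and 25806 in parental libraries of MLM (log2 fold change 1.79 ± 0.18 SE, adjusted p = 0.000445). All LCC libraries lay above all parental ones for both genes in MLM.
In MRM KRT17 had 55686, 92635, 26325 and 25055 in LCC libraries and 14873, 14089.7 and 13102 in parental libraries (log2 fold change 1.62 ± 0.45 SE, adjusted p = 0.025), with LCC1 well above LCC2. KRT5 had 30985, 25844, 10623 and 11073 in LCC libraries and 6662, 6244 and 6271 in parental libraries there (log2 fold change 1.45 ± 0.40 SE, adjusted p = 0.0236). KRT17 made up 7.61% to 19.6% of the normalised keratin counts of an LCC library, against 2.28% to 4.11% of a parental one, and KRT8 13.6% to 20.5% of an LCC library against 23.2% to 27.2% of a parental one.
KRT15 fell, with 73832, 67684, 106091 and 109251 in LCC libraries and 212188, 236391 and 162099 in parental libraries of MLM (log2 fold change -1.20 ± 0.22 SE, adjusted p = 0.00554). In MRM its log2 fold change was -1.26 ± 0.33, with each LCC library below each parental one. KRT14, the type I partner of KRT5, had 135, 263, 360.4 and 347 in LCC libraries and 895, 847 and 815 in parental libraries of MRM (log2 fold change -1.72 ± 0.33 SE, adjusted p = 0.00584). In MLM it had 158, 124, 629.9 and 575 in LCC libraries and 1606, 1473 and 587 in parental libraries and did not pass the limma test, also without parental library 3 (log2 fold change -2.40 ± 0.75, adjusted p = 0.0524), while DESeq2 called it. Parental library 3, at 587, was there lower than 1 of the LCC libraries. In the MRM test the KRT17 call was lost without 4 of the 7 libraries in turn, and those of KRT5 and KRT15 without 3. The MRM log2 fold changes without the second LCC1 library were 1.25 ± 0.30 for KRT17, 1.27 ± 0.40 for KRT5, -0.98 ± 0.19 for KRT15 and -1.73 ± 0.37 for KRT14. Those in MLM without parental library 3 were 2.02 ± 0.07 for KRT17, 1.42 ± 0.14 for KRT5 and -1.36 ± 0.23 for KRT15. All of these 7 were called.

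The mucosal pair KRT4 and KRT13 showed some of the widest falls. KRT4 had 28.2, 24.7, 68.6 and 59.8 normalised counts in LCC libraries of MLM, against 7702, 6796 and 2576 in parental libraries (log2 fold change -6.92 ± 0.50 SE, adjusted p = 0.000164). In MRM it had 31.9, 15.6, 64.6 and 62.2 in LCC libraries and 2877, 2785 and 2611 in parental libraries (log2 fold change -6.15 ± 0.46 SE, adjusted p = 0.000133). The highest LCC library was thus far below the lowest parental one in both media. KRT13 had 168, 192, 136 and 163 in LCC libraries and 1059, 1104 and 1370.4 in parental libraries of MLM (log2 fold change -2.83 ± 0.16 SE, adjusted p = 8.95e-05). In MRM its log2 fold change was -2.66 ± 0.32. Leaving out parental library 3 gave MLM log2 fold changes of -7.42 ± 0.46 for KRT4 and -2.72 ± 0.16 for KRT13, and those in MRM without the second LCC1 library were -5.74 ± 0.27 and -2.75 ± 0.35.
The wound keratin KRT6A had 142, 166, 33.2 and 39.5 in LCC libraries and 826, 986 and 3159 in parental libraries of MLM (log2 fold change -4.18 ± 0.72 SE, adjusted p = 0.00419). In MRM it fell too, with a log2 fold change of -3.42 ± 0.93. It was -3.57 ± 0.74 in MLM without parental library 3, the highest at 3159, and -3.96 ± 0.88 in MRM without the second LCC1 library. The MRM calls of KRT6A and KRT6B were each lost without 3 of the 7 libraries in turn. Its near copy KRT6B had 539, 581, 1425 and 1443 in LCC libraries and 276, 309 and 303 in parental libraries of MRM (log2 fold change 1.60 ± 0.39 SE, adjusted p = 0.0156), so the 2 copies moved in opposite directions there. The log2 fold change of KRT6B was 1.80 ± 0.38 without the second LCC1 library. KRT16, their type I partner, fell in MLM with 1625, 1713, 1371 and 1456 in LCC libraries and 3346, 3365 and 1689.8 in parental libraries. Parental library 3 lay within the range of the LCC values for KRT16, and the call (log2 fold change -0.80 ± 0.25 SE, adjusted p = 0.0389) was lost without 6 of the 7 libraries in turn. Without parental library 3 itself the log2 fold change was -1.13 ± 0.11 (adjusted p = 0.0013), and with library totals as the scale the call was lost. KRT9, a keratin of palms and soles, had 123, 156, 97.2 and 96.2 in LCC libraries and 38.9, 55.9 and 69.1 in parental libraries of MLM (log2 fold change 1.11 ± 0.27 SE, adjusted p = 0.0157), so it rose there with no overlap, and by 1.29 ± 0.28 without parental library 3. The KRT9 call was lost without parental library 1 and in 1 fit of all 4 groups.

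KRT23 and KRT80 lie outside these groups. KRT23, a type I keratin, had 2344, 2589.9, 3098 and 2863 in LCC libraries and 1535, 1223 and 598 in parental libraries of MLM (log2 fold change 1.38 ± 0.30 SE, adjusted p = 0.0105). Its log2 fold change without parental library 3 was 0.98 ± 0.15. In MRM limma did not call KRT23 with all libraries, edgeR and DESeq2 did, and without the second LCC1 library its limma log2 fold change was 1.63 ± 0.20, which was called. KRT80 rose by 0.77 ± 0.19 in MLM and 0.92 ± 0.24 in MRM on the log2 scale. Each LCC library of each medium lay above each parental library of the same medium for KRT80. KRT75 rose in MRM, with 302, 338, 216 and 237 in LCC libraries and 80.7, 64.1 and 73.8 in parental libraries (log2 fold change 1.88 ± 0.19 SE, adjusted p = 0.000498). That call was lost in 1 fit of all 4 groups.
Among the hair shaft keratins, KRT40 rose in both media, by 1.53 ± 0.50 in MLM and 1.45 ± 0.23 in MRM. The MLM call of KRT40 (adjusted p = 0.048) was lost under edgeR, with no filter on low values and without 6 of the 7 libraries in turn, among them parental library 3 (0.96 ± 0.36, adjusted p = 0.0913). KRT32 of the hair cuticle rose in MRM by 1.15 ± 0.34, a call lost without 5 of the 7 libraries in turn and in 1 fit of all 4 groups. In MLM KRT32 had 55 reads in LCC libraries and 2 in parental ones, a ratio of 18.6 with an exact 95% counting interval from 4.92 to 157.8. KRT85 of the hair matrix fell in MRM, with 15.4, 26.6, 6.98 and 18.3 in LCC libraries and 25.6, 79.5 and 76.6 in parental libraries (log2 fold change -1.76 ± 0.54 SE, adjusted p = 0.0362). One LCC library lay above the lowest parental value for KRT85, and the call was lost without 5 of the 7 libraries in turn. KRT81, the most abundant hair shaft keratin in reads, had 53602, 52928, 74382 and 72608 in LCC libraries and 55967, 47982 and 73384 in parental libraries of MLM and was not called. The hair shaft keratins KRT33A, KRT34, KRT39, KRT83 and KRT86, together with KRT3, KRT10, KRT12, KRT74 and KRT78 and the pseudogene KRT42P, were tested in at least 1 medium, and limma and edgeR called none of them with all libraries. DESeq2 called KRT34 higher in MRM, and limma called KRT74 lower in MLM without parental library 3 and KRT33A higher in MRM without the second LCC1 library.

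**Figure D4:**
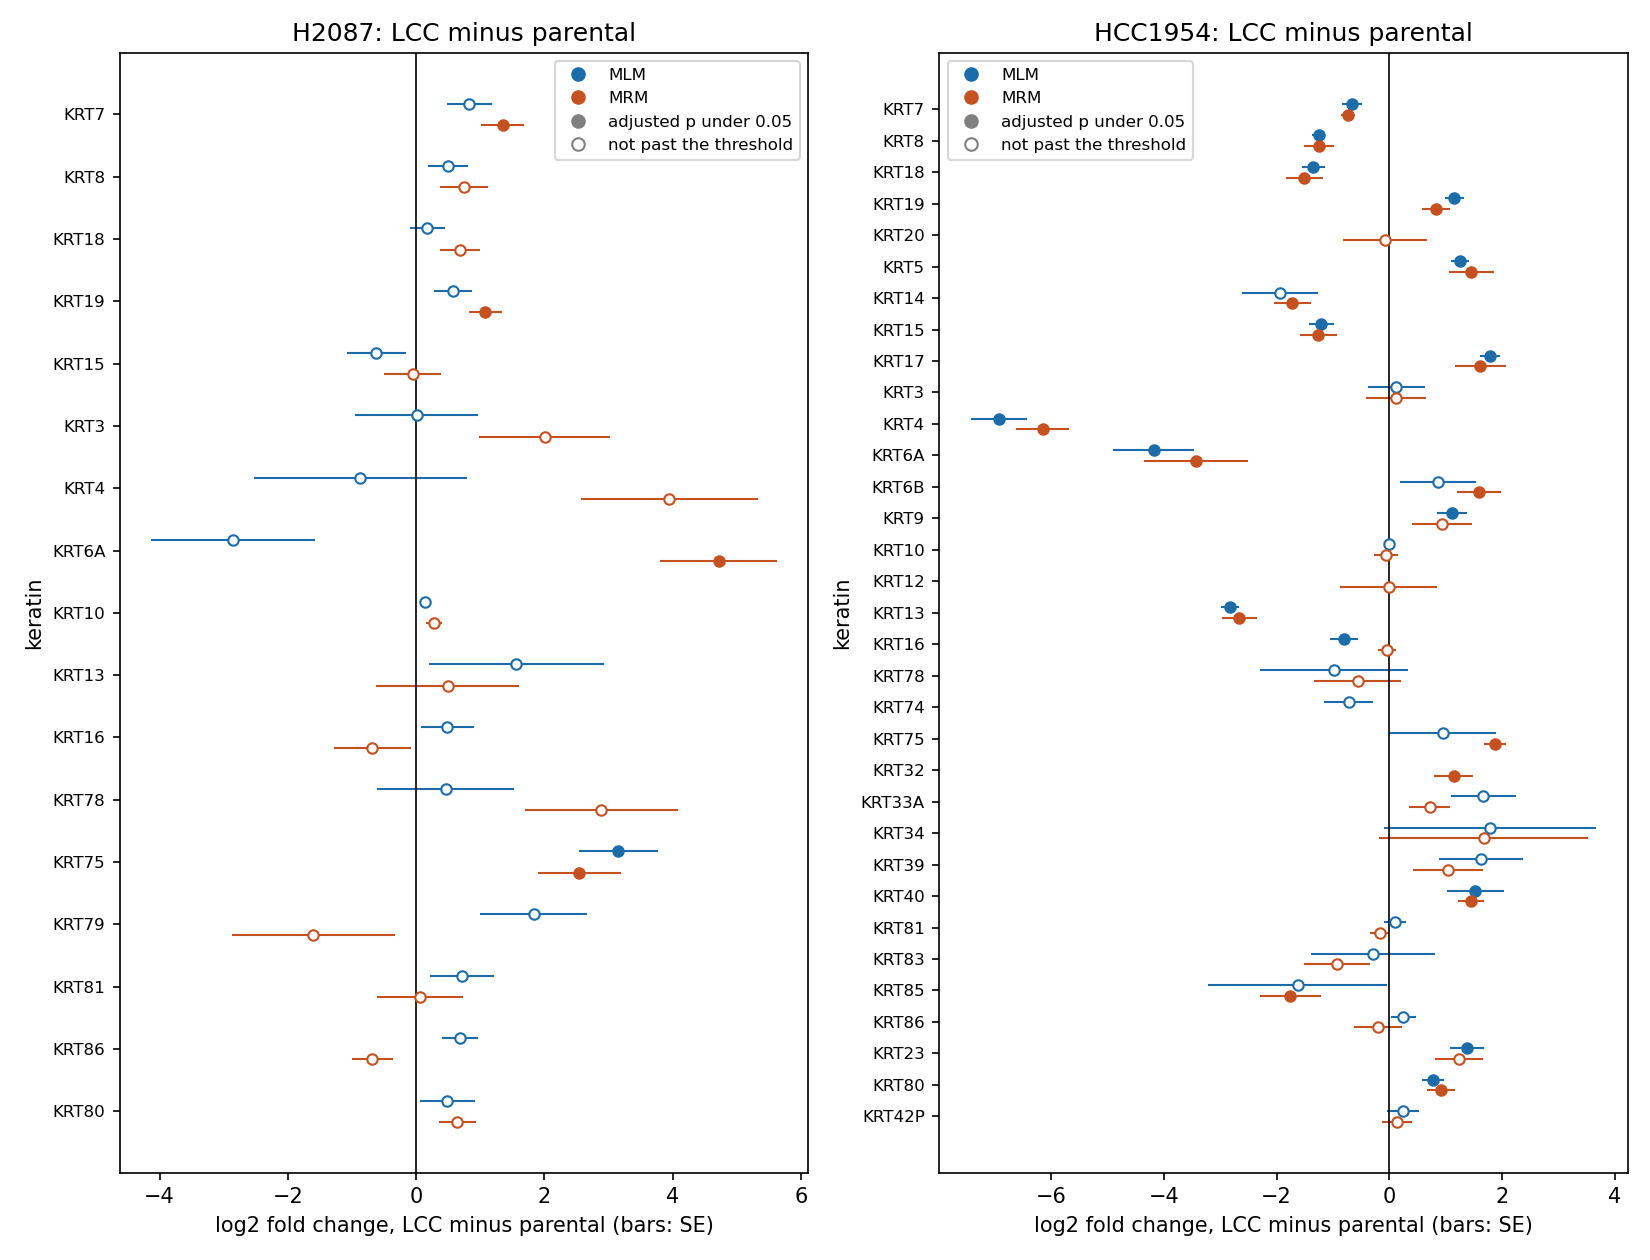
Log2 fold changes of LCC over parental cells (x axis) with their standard errors for the keratins of each line (rows, by group), in MLM and MRM. In HCC1954 KRT4 lies furthest to the left at -6.92 in MLM and -6.15 in MRM, and KRT17 and KRT5 lie to the right in both media.

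Genes of the lists around the keratins moved in HCC1954 as well. Of the squamous differentiation genes, 5 of 21 rose and 10 fell in MLM, against 36.5% of all genes called, and 4 of 22 rose and 9 fell in MRM, against 38.4%. PI3, an elastase inhibitor of cornified cells, rose by 3.79 ± 0.85 in MLM and 3.83 ± 1.05 in MRM, and LY6D by 2.89 ± 0.46 and 2.88 ± 0.30. SPRR3, a cornified envelope gene, fell in MLM (-3.18 ± 0.61), and S100A7 fell in MLM (-2.67 ± 0.41) and MRM (-3.45 ± 0.50), as did the transcription factor GRHL3 (-1.76 ± 0.48 and -2.66 ± 0.58). Of the filament partners, 1 of 19 rose and 6 fell in MLM, against 36.5% of all genes, and 1 of 19 rose and 5 fell in MRM, against 38.4%, so the share of partners called was close to that of all genes in MLM and below it in MRM. The one that rose was DST, a hemidesmosomal linker of keratins (0.77 ± 0.08 and 0.81 ± 0.16), and DSG2, a desmosomal cadherin, fell (-0.76 ± 0.23 and -1.14 ± 0.16). The median over the squamous list was -0.61 in MLM and -0.51 in MRM, over the partners -0.28 and -0.27, and over all genes -0.0022 and -0.0042. The 8 epithelial markers summed to 2819 to 3083 CPM in LCC libraries and 3283 to 3478 CPM in parental libraries of MLM, and to 2188 to 3521 CPM in LCC libraries and 4526 to 4735 CPM in parental libraries of MRM. The part of these markers in the keratin changes was not tested.

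The HCC1954 derivatives LCC2 and LCC1 were compared with both media in 1 fit. Of 32 keratins, 6 were higher and 9 lower in LCC2, against 45.8% of all genes, and with library totals as the scale 8 and 8. For 10 of 32 the 4 LCC2 libraries did not overlap the 4 LCC1 libraries, against 31.8% of all genes. The share called was thus close to that of all genes. Scaling by library totals put the median log2 fold change of all genes at 0.147.
KRT34, a type I keratin of the hair cortex, differed by the most. It had 6.86 and 10.1 normalised counts in LCC2 and 551 and 637 in LCC1 in MLM, and 0.873 and 2.03 in LCC2 and 138 and 334 in LCC1 in MRM (log2 fold change -6.24 ± 0.32 SE, adjusted p = 3.16e-05). Parental libraries had 15.5, 4.86 and 102 in MLM and 6.39, 5.74 and 6.21 in MRM, so LCC1 lay above and LCC2 near or below them. Taken alone against parental cells, LCC1 was higher in MLM by 4.79 ± 1.05 (5.91 ± 0.40 without parental library 3) and in MRM by 4.92 ± 0.43 (4.29 ± 0.53 without the second LCC1 library), where 55.7% and 55.1% of all genes were called, while LCC2 was lower in MRM (log2 fold change -1.58 ± 0.43), where 52.0% were. The hair keratin KRT39 was lower in LCC2 than in LCC1 as well (log2 fold change -1.86 ± 0.38 SE, adjusted p = 0.00544).
KRT6A and KRT6B went apart between the derivatives. KRT6A had 33.2 and 39.5 in LCC2 and 142 and 166 in LCC1 in MLM, and 89.9 and 81.8 in LCC2 and 874 and 827 in LCC1 in MRM (log2 fold change -2.68 ± 0.25 SE, adjusted p = 0.000195). KRT6B had 916 and 961 in LCC2 and 168 and 235 in LCC1 in MLM, and 1425 and 1443 in LCC2 and 539 and 581 in LCC1 in MRM (log2 fold change 1.79 ± 0.19 SE, adjusted p = 0.000317). Neither gene's derivatives overlapped in either medium.
Among the basal keratins, KRT14 (1.50 ± 0.29) and KRT15 (0.81 ± 0.16) were higher and KRT5 (-0.83 ± 0.21) was lower in LCC2, given as log2 fold changes. The simple pair was lower in LCC2, with log2 fold changes of -0.49 ± 0.16 for KRT8 and -0.83 ± 0.14 for KRT18. The KRT8 call was lost with library totals as the scale and without 5 of the 8 libraries in turn. KRT4, low in both derivatives, had 68.6 and 59.8 in LCC2 and 28.2 and 24.7 in LCC1 in MLM (log2 fold change 1.35 ± 0.23 SE, adjusted p = 0.00241). KRT23 (0.79 ± 0.27) and KRT40 (0.61 ± 0.18) were higher and KRT80 (-0.69 ± 0.09), KRT3 (-1.28 ± 0.25) and KRT78 (-3.52 ± 0.46) lower. The calls of KRT23 and KRT40 were lost without 6 and 4 of the 8 libraries in turn. Without the second LCC1 library of MRM the log2 fold changes of LCC2 over LCC1 were -5.94 ± 0.24 for KRT34, -2.57 ± 0.26 for KRT6A, 1.90 ± 0.18 for KRT6B, -0.31 ± 0.06 for KRT8 and 0.46 ± 0.10 for KRT23, and all 15 calls stayed. In MLM KRT78 had 1 read in LCC2 and 50 in LCC1, a ratio of 0.0174 with an exact 95% counting interval from 0.00043 to 0.102.

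For 4 of 32 keratins the difference between the derivatives itself depended on medium, against 3.61% of all genes. KRT75 had 1659 and 1469 normalised counts in LCC2 and 136 and 182 in LCC1 in MLM. In MRM it had 216 and 237 in LCC2 and 302 and 338 in LCC1. The derivatives thus did not overlap in MLM or in MRM, and their order turned round. Taken alone, the MRM difference was not called (log2 fold change -0.50), and its libraries include the LCC1 library that stood apart. The difference in MLM minus that in MRM was 3.80 ± 0.23 on the log2 scale (adjusted p = 0.00591). Between the media KRT75 was higher in MLM in LCC2 (log2 fold change 2.78 ± 0.16) and lower in LCC1 (-1.02 ± 0.16), where 30.2% and 29.0% of all genes were called.
KRT5 had 26593 and 25804 in LCC2 and 33115 and 30782 in LCC1 in MLM, and 10623 and 11073 in LCC2 and 30985 and 25844 in LCC1 in MRM. The difference by medium was 1.10 ± 0.14 for KRT5, 1.24 ± 0.22 for KRT6A and -0.70 ± 0.09 for KRT10 (adjusted p = 0.0211, 0.0383 and 0.0211). Without the second LCC1 library of MRM, 16 of 32 keratins had such a difference, against 37.8% of all genes, and those of KRT75, KRT5, KRT6A and KRT10 were 3.72 ± 0.18, 1.23 ± 0.07, 1.28 ± 0.24 and -0.65 ± 0.07. With the MLM libraries alone limma called 21 of 30 keratins between the derivatives when refitted on those 4 libraries, against 66.2% of all genes. With the MRM libraries alone, which include the LCC1 library that stood apart, it called 6 of 32, against 6.78%. That order of the media depends on the fit. The limma fit of both media that gave the differences above called more keratins in MRM than in MLM. In it 7528 of 15467 genes in MLM and 7293 in MRM had an unadjusted p under 0.05.

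**Figure D5:**
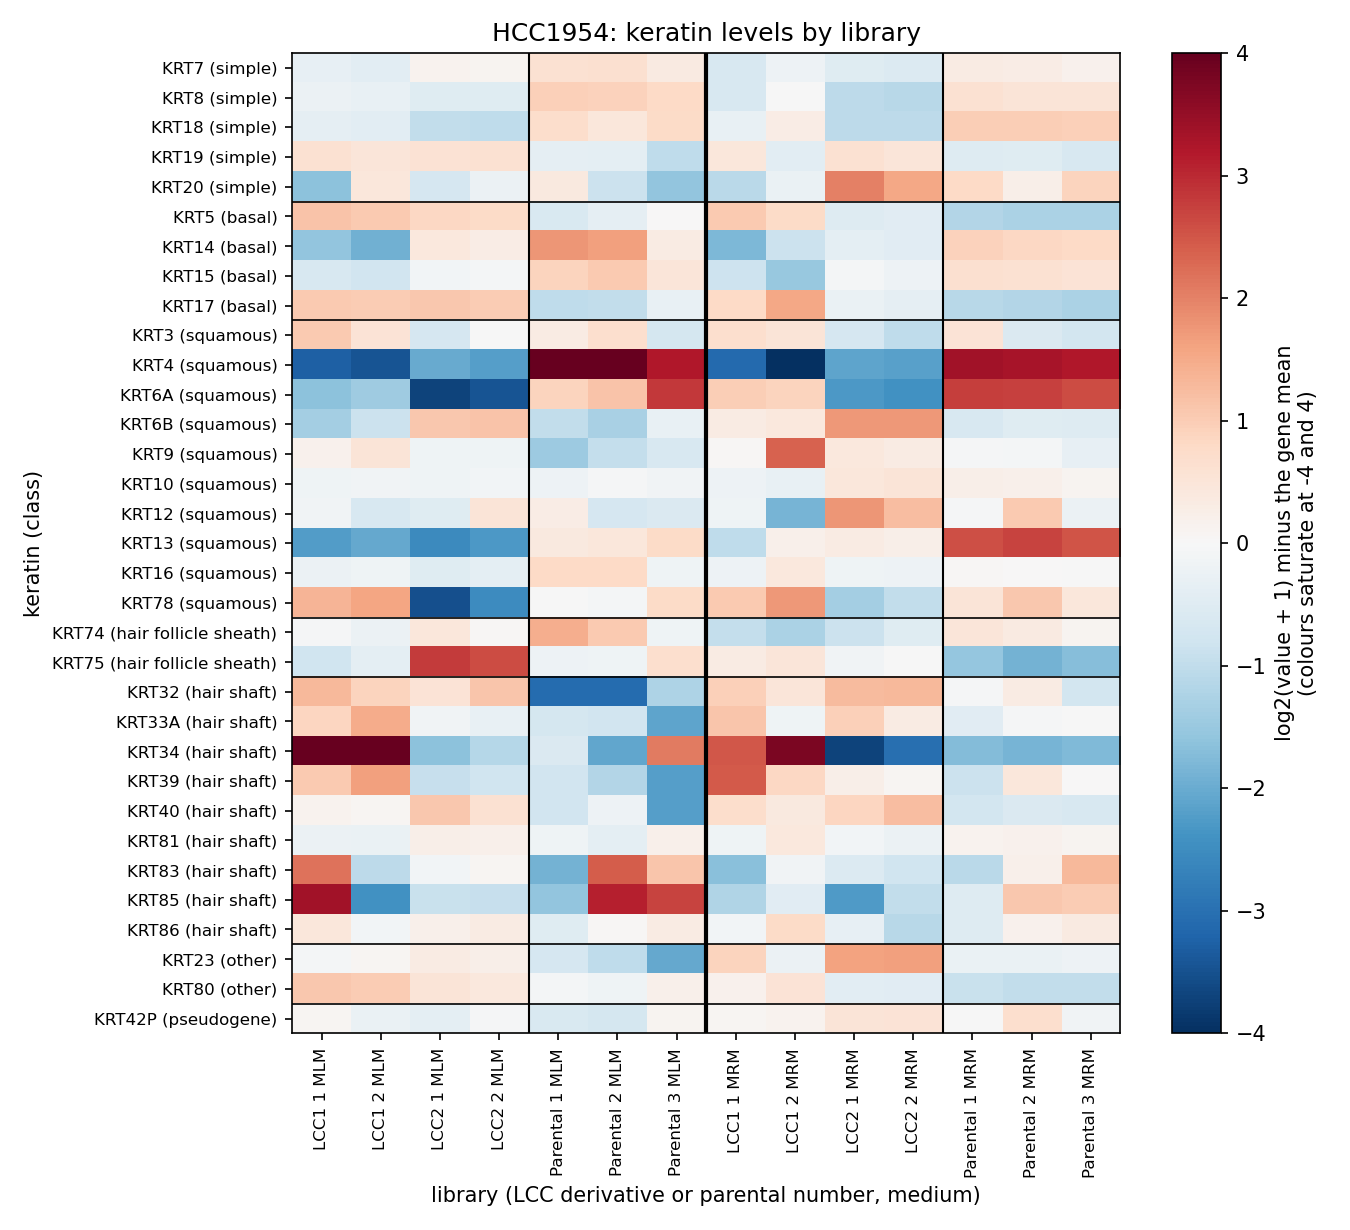
Normalised counts of the 33 HCC1954 keratins in every library as colour, log2 of the count plus 1 set relative to the mean of the gene (rows, keratins by group; columns, LCC before parental libraries). KRT4 is low in all 8 LCC columns at 15.6 to 68.6, KRT34 is high in LCC1 columns, and the second LCC1 library of MRM differs from the first.

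Between the media, the squamous keratin KRT13 was lower in MLM in both kinds of HCC1954 cell. In LCC cells it was the 1 keratin of 32 called, against 11.9% of all genes, with 168, 192, 136 and 163 normalised counts in MLM and 396, 924, 1009.7 and 934 in MRM (log2 fold change -2.22 ± 0.30 SE, adjusted p = 0.00498). The first LCC1 library of MRM was far below the other 3 but above all of MLM. The LCC libraries of the media were paired by derivative and library number, a pairing not borne out for the second LCC1 library of MLM. With each pair as a block, 2 of 32 keratins were higher and 3 lower in MLM, against 28.5% of all genes. Higher were KRT34 (1.72 ± 0.25) and KRT80 (0.79 ± 0.10), and lower were KRT6B (-1.05 ± 0.20), KRT6A (-1.84 ± 0.29) and KRT13 (-2.22 ± 0.27, log2 fold change ± SE). Without the second LCC1 library of MRM 4 keratins were called with no block, against 13.6% of all genes, and KRT13 was at -2.13 ± 0.33.
In parental cells 4 of 29 keratins were higher and 5 lower in MLM, against 46.4% of all genes. KRT13 had 1059, 1104 and 1370.4 in MLM and 4784, 5176 and 4585 in MRM (log2 fold change -2.05 ± 0.11 SE, adjusted p = 8.62e-05). KRT75 had 209.8, 212 and 385 in MLM and 80.7, 64.1 and 73.8 in MRM (log2 fold change 1.81 ± 0.25 SE, adjusted p = 0.00164), which is the reverse of its direction in H2087 parental cells, though the difference between the lines was not tested. KRT5 had 9932, 11768 and 15292 in MLM and 6662, 6244 and 6271 in MRM (log2 fold change 0.93 ± 0.15 SE, adjusted p = 0.0028). For these 3 genes no MLM library overlapped an MRM library. Without parental library 3 of MLM their log2 fold changes were -2.16 ± 0.06, 1.52 ± 0.13 and 0.76 ± 0.06. In 1 fit of all 4 groups of the line the call of KRT13 stayed and those of KRT75 and KRT5 were lost.
KRT80 (0.93 ± 0.10) and KRT8 (0.34 ± 0.09) were the others higher in MLM, and KRT10 (-0.32 ± 0.07), KRT18 (-0.33 ± 0.10), KRT9 (-0.87 ± 0.23) and KRT23 (-0.98 ± 0.31) the others lower. Without parental library 3 of MLM, 12 keratins were higher and 9 lower, against 68.7% of all genes, and 5, 5 and 6 were called without parental libraries 1, 2 and 3 of MRM. In KRT32 the parental cells had 2 reads in MLM and 25 in MRM, a ratio of 0.127 with an exact 95% counting interval from 0.0146 to 0.509.
For 0 of 33 keratins did limma find that the LCC effect differed between the media in HCC1954, against 0.156% of all genes. At an unadjusted p under 0.05 there were 2, and edgeR and DESeq2 called 0, as did the fit with blocks, where 0.753% of all genes were called. Without parental library 3 of MLM and the second LCC1 library of MRM, 2 were called, against 1.22% of all genes.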

How the data were processed

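RNA libraries of 2 established cell lines were analysed, 30 of the 31 that the labels list. Not analysed here were H2087 parental library 3 of MLM and the 12 samples of chromatin. The deposited signal values are normalised counts. In 100% of values they were whole multiples of 1 step per library within 0.01 reads, so they are counts divided by a size factor, which both media of a line share (largest relative difference 8.72e-10 in H2087 and 6.67e-10 in HCC1954). This unit was not the one the design had assumed, and tests between media follow from it. Per the submitters' processing notes, the tools were DESeq2 1.8.1, HTSeq 0.6.1p1 and Bowtie2 2.2.4 and the builds hg19 and GRCh37, and their role is not given in the sources used here. Promoter windows and gene spans are from RefSeq GRCh38.p14, and no deposited coordinate was used.

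Tests used limma 3.58.1 in R 4.3.3 (trended variance, two-sided) on log2 of the deposited value plus 1, over all genes with a mean of at least 10 in the fit, with Benjamini-Hochberg adjustment over all of them and a threshold of 0.05. Fold changes are on this log2(value + 1) scale, which understates those of low genes. Where "called" is written, the adjusted p was under that threshold. edgeR 4.0.16 (quasi-likelihood) and DESeq2 1.42.0 on the recovered counts, a pseudocount of 5, no filter, library-total scaling, 1 fit of 4 groups, a replicate block and leaving out each library were alternatives. The fits of each HCC1954 derivative and by medium were added after seeing the data. The procedure was tested on simulated data. CPM are recovered counts scaled to equal library totals of 1 M reads. Ratios of genes with 1 to 3 reads carry exact intervals at 95%, which cover counting error only, since reads are not independent molecules.

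Libraries of the media pair by their labels in H2087 LCC cells (correlation of deviations 0.411 to 0.756). In HCC1954 LCC cells the correlation between libraries of the same label was 0.507 to 0.698. There the second LCC1 library of MLM matched the first LCC1 library of MRM better (0.549) than the second (0.507). The members, gene lists and motifs were chosen with earlier results of these data known. Values are given for members called in at least 1 comparison with a mean of at least 100 in 1 group of the line and for KRT5, KRT7, KRT8, KRT14, KRT17, KRT18 and KRT19, and the other members by range and count or by name. From the other lists up to 4 called members of the largest change were taken as candidates, and a few more called ones are named.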

Additional observations from a re-analysis of the deposited data

Results flagged for a closer look

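A library far from the others of its group was looked for by the gap of its value to the nearest other, against Dixon's limit at 95%, in 64 groups of 4 to 6 libraries. At this limit chance flags about 1 of 20 groups where the groups are unselected and independent. The members searched were mostly chosen because they were called in these same data, and they share libraries. That rate therefore does not apply here. In all, 11 flags were found, 7 of them on LCC4 of H2087. Its normalised counts were far above the other 5 derivatives for KRT18 in MLM (143323) and MRM (162987), KRT8 in MLM (118075) and MRM (163026), KRT78 in MLM (433), and KRT7 (54259.9) and KRT80 (6008) in MRM. In HCC1954 the other 4 were on LCC libraries of MRM. The first LCC1 library was low for KRT13 (396), and the second was high for KRT16 (2594) and KRT9 (559) and low for KRT19 (1076). These 2 libraries had a chi-square of read counts per degree of freedom of 115.5 over all genes, against 2.1 for the LCC2 pair of MRM.

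A tested difference between contrasts was found for KRT6A in H2087, where the LCC effect in MLM minus that in MRM was -7.57 ± 1.66 on the log2 scale, from parental MRM libraries with 1 read. In HCC1954 the difference of LCC2 from LCC1 in MLM minus that in MRM was 3.80 ± 0.23 for KRT75, 1.24 ± 0.22 for KRT6A, 1.10 ± 0.14 for KRT5 and -0.70 ± 0.09 for KRT10. Without the second LCC1 library of MRM these 4 keratins stayed past the threshold, among 16 of 32 in all, against 37.8% of all genes.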

How the results depend on the processing

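No keratin called in a comparison changed direction under any alternative. For the 94 single calls, 1155 of 1345 alternative values stayed past the threshold and 190 did not, 150 of them with 1 library left out. The replicate block gave 8 calls between the media in H2087 LCC cells, where limma without it gave 0, and edgeR, DESeq2, library-total scaling and 1 fit of 4 groups each gave 1. In HCC1954 LCC cells the block gave 5, DESeq2 4 and the 4-group fit 2, against 1. That 4-group fit gave 4 in H2087 parental cells, against 11, and 3 in HCC1954 parental cells, against 9. For how the LCC effect varied with medium in H2087, the block gave 8, DESeq2 2 and edgeR 0, against 1. In HCC1954 it was 2 without parental library 3 of MLM and the second LCC1 library of MRM, against 0. LCC2 against LCC1 gave 6 with MRM libraries alone, against 15, and the single H2087 derivatives 33 calls under DESeq2, against 20. Parental libraries of the media share only a number (correlation of deviations 0.0515 in H2087 and 0.0183 to 0.116 in HCC1954), and the block left their counts at 11 and 9. The block changed no other count.

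With 1 library left out, the calls of LCC against parental cells ranged from 0 to 2 in H2087 MLM, 0 to 8 in H2087 MRM, 11 to 16 in HCC1954 MLM and 8 to 21 in HCC1954 MRM. LCC2 against LCC1 gave 12 to 18. MLM against MRM gave 0 to 1 in H2087 LCC, 9 to 12 in H2087 parental, 1 to 4 in HCC1954 LCC and 5 to 21 in HCC1954 parental cells. The difference between media gave 0 to 2 in H2087 and 0 to 1 in HCC1954, and the single derivatives 12 to 32, lowest without an LCC3 library and highest without the LCC6 library of MRM. Where a fit kept 1 parental library or 1 library of a derivative, it was assumed to vary like the others. Scaling by library totals put the median log2 fold change of all genes at 0.11 for MLM against MRM in H2087 LCC cells and 0.103 in parental cells. Depth limits the low members: keratins with 1 to 3 reads in a group have ratios with wide intervals, and MRM libraries of H2087 held fewer reads than those of MLM.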
